A study of Mus musculus with 8 samples.

Results

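The CXC chemokines and receptors described here are 9 genes of the mouse: the ligands Cxcl1, Cxcl2, Cxcl5, Cxcl12, Cxcl13, Cxcl14 and Cxcl16 and the receptors Cxcr2 and Cxcr4. They were chosen by name. Each was read from probe sets that carry its symbol and no other, 16 probe sets in all among 45101 on the array, and the probe set with the highest mean signal over the 8 arrays stood for the gene. Of the 18193 genes with a probe set of their own, 13041 passed a filter on low signals and were tested, and 8 of the 9 CXC genes were among them. Cxcl5 was not, because its signal lay above the array's median on 0 of 8 arrays.

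Macrophages were sorted from mammary glands of FVB females that were 6 weeks old when treatment began. The 4 groups were MMTV-iFGFR1 transgenic mice after 48 hours of dimerizer, their non-transgenic littermates (the controls) after 48 hours of dimerizer, transgenic mice after 4 weeks of dimerizer, and non-transgenic littermates after 4 weeks of dimerizer. The transgene is a form of fibroblast growth factor receptor 1 that a dimerizer drug switches on, driven by the promoter of mouse mammary tumour virus, which works chiefly in mammary epithelium. The promoter is thus aimed at the epithelium rather than at macrophages, and the controls received the drug too. Cells were freed with collagenase and sorted for Cd11b, an integrin chain found on macrophages and also on neutrophils, monocytes, NK cells and part of the dendritic cells. Each array held the RNA of 3 mice combined, and there were 2 such pools in each group. One label conflicts with the others: the free-text description of transgenic pool 2 at 4 weeks says non-transgenic mice, while its title, source and genotype say transgenic, and it was used as transgenic.

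CXC chemokines are small secreted proteins that steer leukocytes by binding receptors coupled to G proteins. Those with a Glu-Leu-Arg motif before the first cysteines, such as Cxcl1, Cxcl2 and Cxcl5, act on Cxcr2 and draw neutrophils, and macrophages are a known source of them. Cxcl12 acts on Cxcr4 and holds haematopoietic cells in bone marrow and tissue, Cxcl13 draws B cells through Cxcr5, and Cxcl16 is a membrane-bound ligand of Cxcr6 that can be shed.

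Transcripts that define macrophages had high signals. Csf1r, the receptor for the macrophage growth factor Csf1, lay between 68311 and 93065 in signal units over the 8 arrays, and Adgre1, which encodes F4/80, lay between 9842 and 14627. Itgam, which encodes Cd11b itself, lay between 46.8 and 545, above the array median on 7 of 8 arrays. Markers of other cells were also measured. The summed signal of 9 neutrophil markers was 9264 to 9558 in transgenic pools at 48 hours, against 15284 to 17092 in control pools, and at 4 weeks it was 8037 to 8277 in transgenic pools, against 10448 to 22858 in control pools. Of the 8 tested, 5 at 48 hours and 3 at 4 weeks had both transgenic pools below both control pools. Of all genes, 16.1% at 48 hours and 17.2% at 4 weeks had that order. The summed signal of luminal epithelial markers was 11570 to 11984 in transgenic pools at 48 hours, against 3618 to 3934 in control pools, and at 4 weeks it was 6348 to 10912 in transgenic pools, against 8603 to 13384 in control pools. The contrast between genotypes at 48 hours was thus not present at 4 weeks, where the ranges overlapped. The ratio of 3′ to 5′ beta-actin signal, which rises as RNA gets shorter, was 37.0 in control pool 2 at 4 weeks and 6.84 to 13.9 on the other 7 arrays. Its log2 value averaged 3.06 ± 0.32 on transgenic arrays and 3.88 ± 0.95 on control arrays (SD, n = 4 each; exact permutation test, two-sided p = 0.143, where the smallest possible p was 0.0286).

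None of the 8 tested CXC genes passed the threshold of an adjusted p of 0.05 in any comparison between transgenic and control pools or between times. At 48 hours the difference was below 0 for 7 of the 8 genes, with a median log2 difference of -0.31 between transgenic and control pools, against a median of 0.04 over all 13041 genes, of which 46% were below 0. At 4 weeks it was below 0 for 5 of 8, with a median of -0.06 against -0.02 over all genes, of which 52% were below 0. These group values moved with the setting, in recounts added after the values were seen. At 48 hours, 6 of 8 were below 0 with a median of -0.12 after quantile normalization, and 5 of 8 with a median of -0.12 with the beta-actin ratio as a covariate. At 4 weeks, 1 of 8 was below 0 with a median of 0.26 without control pool 2, and 7 of 8 with a median of -0.29 without transgenic pool 2. Differences were tested with limma on the log2(signal + 30.8) scale, which understates the change of dim genes, and p was adjusted by the Benjamini-Hochberg method over all genes. The share of all genes called was 0% at 48 hours and 0% at 4 weeks, and 4.07% at 48 hours and 5.08% at 4 weeks had an unadjusted p under 0.05. It was also 0% for the other comparisons, except for the time difference in control pools, where it was 0.00767%. The smallest adjusted p of a CXC gene was 0.976 at 48 hours and 0.995 at 4 weeks. With bulk RNA, fewer cells of a type and less RNA per cell cannot be told apart.

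**Figure D1:**
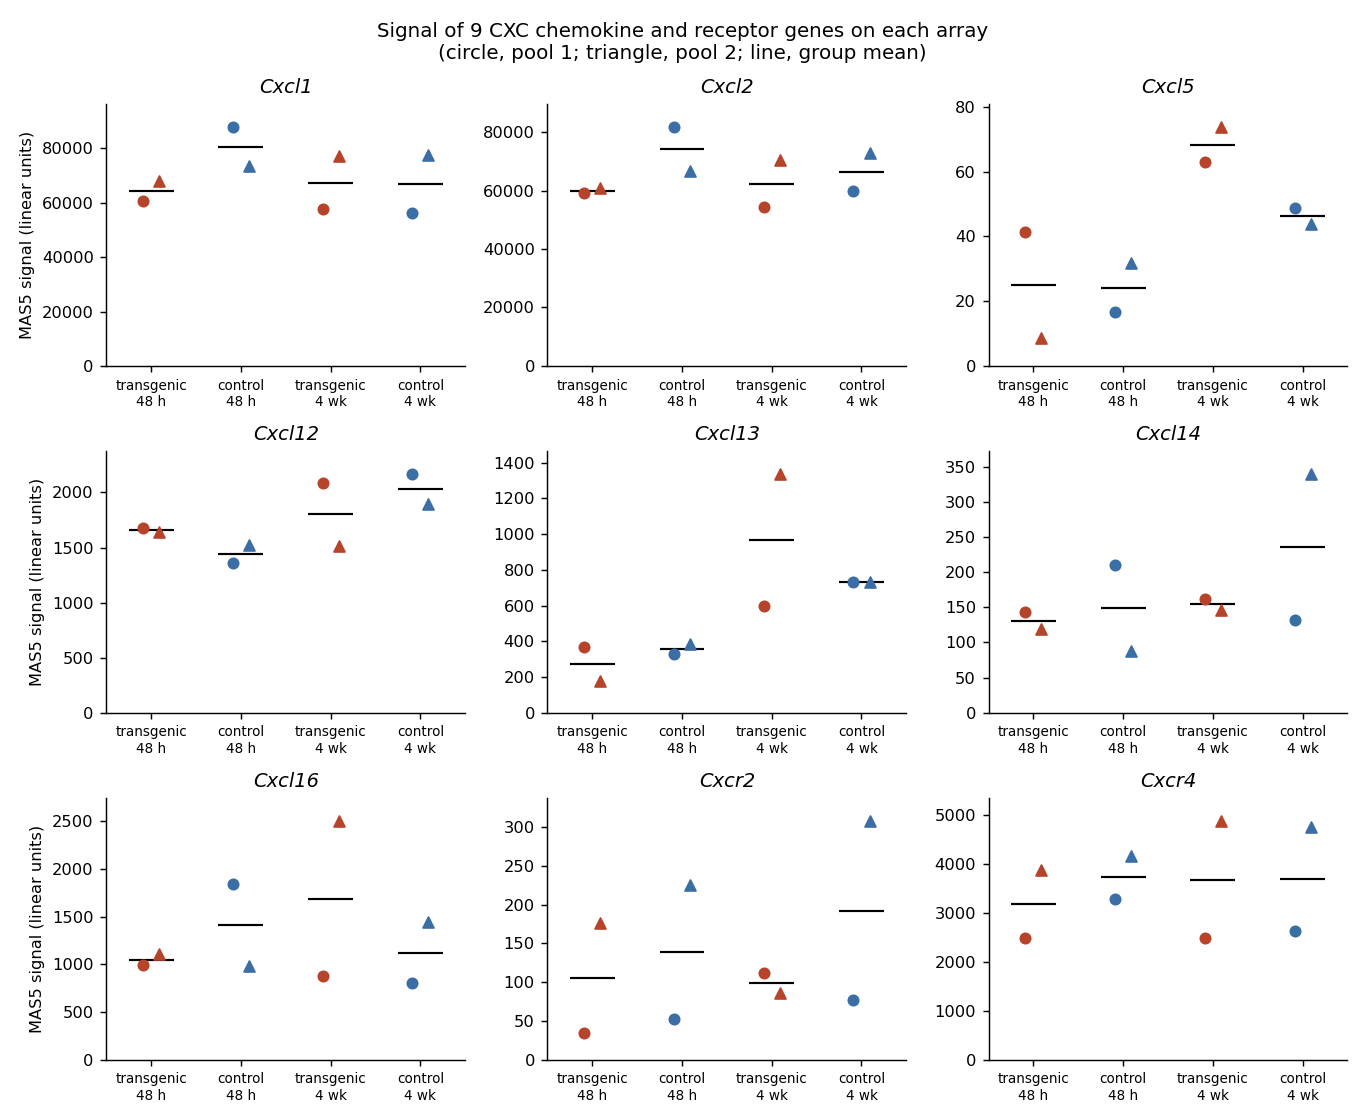
Signal in linear MAS5 units of each of the 9 CXC genes in transgenic (red) and control (blue) pools at 48 hours and at 4 weeks, with circles for pool 1, triangles for pool 2 and lines for group means. Cxcl13 is higher in all 4 pools of 4 weeks than in all 4 pools of 48 hours, and Cxcl1 and Cxcl2 are lower in both transgenic pools than in both control pools at 48 hours.

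Cxcl1 and Cxcl2 were measured with very high signals in every pool. Both genes lie on chromosome 5 with their starts 12654 bases apart, on the same strand. The 250 bases before each start are shown because Cxcl2 was among the 2 genes of 13041 whose pattern over the 8 arrays came closest to that of Cxcl1. They are from RefSeq (GRCm38.p6, plus strand), at chr5:90890995-90891244 for Cxcl1 and chr5:90903649-90903898 for Cxcl2, and capitals mark the match to the consensus site of the transcription factor NF-kB.

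Cxcl1: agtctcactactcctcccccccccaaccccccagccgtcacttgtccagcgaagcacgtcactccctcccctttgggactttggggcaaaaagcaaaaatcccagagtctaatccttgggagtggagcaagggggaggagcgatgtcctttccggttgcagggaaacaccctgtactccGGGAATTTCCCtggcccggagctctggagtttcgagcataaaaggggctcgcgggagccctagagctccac

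Cxcl2: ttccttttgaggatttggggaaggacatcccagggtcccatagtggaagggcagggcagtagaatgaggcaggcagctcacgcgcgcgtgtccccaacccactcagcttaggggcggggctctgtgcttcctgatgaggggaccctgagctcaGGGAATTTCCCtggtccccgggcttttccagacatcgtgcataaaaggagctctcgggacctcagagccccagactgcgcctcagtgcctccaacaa

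The match spans 11 bases in each promoter, where 2 matches of the consensus overlap, and was searched on both strands. It ends 61 bases before the start of Cxcl1 and 87 bases before that of Cxcl2. The longest run that the promoters share is 14 bases, GGGAATTTCCCTGG, and it contains the match. Of 32851 mouse promoters of this length, 2382 (7.25%) hold a match. Of the 7 CXC genes with a promoter in the table, Cxcl12, Cxcl13, Cxcl14, Cxcr2 and Cxcr4 had 0 matches in this window. A match describes letters only, and no binding was measured here.

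Cxcl1, a neutrophil attractant, had signals of 60615 and 68147 in transgenic pools at 48 hours, against 87688 and 73630 in control pools. Both transgenic pools lay below both control pools. This gave a log2 difference of -0.32 (SE 0.21, 95% interval -0.78 to 0.14, n = 2 pools each), with an adjusted p of 0.976. At 4 weeks the signals were 57706 and 77090 in transgenic pools, against 56396 and 77622 in control pools. These ranges overlapped almost fully, and the log2 difference was 0.01 (SE 0.21, 95% interval -0.45 to 0.47).

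Cxcl2, which also draws neutrophils through Cxcr2, had signals of 59098 and 60827 in transgenic pools at 48 hours, against 81577 and 66583 in control pools. The groups again did not overlap, and the log2 difference was -0.30 (SE 0.19, 95% interval -0.71 to 0.11, adjusted p = 0.976). At 4 weeks the signals were 54300 and 70449 in transgenic pools, against 59934 and 72919 in control pools, with a log2 difference of -0.10 (SE 0.19, 95% interval -0.51 to 0.32). Of all genes tested, 16.1% had both transgenic pools below both control pools at 48 hours, so the order of the pools is common among genes.

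The 48-hour differences of Cxcl1 and Cxcl2 depended on how the arrays were scaled. With quantile normalization the log2 difference at 48 hours was -0.08 for Cxcl1 and -0.03 for Cxcl2. Over both times it was -0.16 for Cxcl1 and -0.20 for Cxcl2 as deposited, and 0.048 for Cxcl1 and 0.0066 for Cxcl2 after quantile normalization. Genes of high signal as a group moved in the same direction. Of the 131 genes in the top 1% of mean signal (at least 25888), which include Cxcl1 and Cxcl2, 99 were below 0 at 48 hours. Their median log2 difference was -0.13 against 0.04 over all genes, and the group was singled out after the values were seen. The part of scaling in the difference was not tested further.

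Cxcl1 had 2 further probe sets, and all 3 were lower in both transgenic pools at 48 hours, with log2 differences of -0.24 (SE 0.32) and -0.26 (SE 0.25) for the other 2. At 4 weeks the 3 probe sets gave log2 differences of 0.01, 0.41 and 0.10. The spread between them at 4 weeks came with transgenic pool 2, in which the second probe set had a signal of 57410, against 25985 in transgenic pool 1, 23580 in control pool 1 and 35964 in control pool 2. No probe set of Cxcl1 passed the threshold.

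Cxcl5, another attractant of this class, had a signal of 41.4 and 8.70 in transgenic pools at 48 hours, against 16.6 and 31.7 in control pools. At 4 weeks it was 62.9 and 73.7 in transgenic pools, against 48.9 and 43.9 in control pools. All 8 values lay under the median signal of their arrays, which ranged from 96.4 to 126.9. The files hold no detection calls, so these values cannot be told from background. Without the filter, the log2 difference at 4 weeks was 0.36 (SE 0.47, adjusted p = 0.996).

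Cxcr2, the receptor of these 3 ligands and a gene of mature neutrophils, had low and scattered signals. They were 35.0 and 176.7 in transgenic pools at 48 hours, against 52.5 and 226.0 in control pools. At 4 weeks they were 112.5 and 86.6 in transgenic pools, against 76.7 and 307.5 in control pools. In 3 of the 4 groups pool 2 lay far above pool 1, and the genotypes overlapped at both times. The log2 difference was -0.32 (SE 0.77, 95% interval -2.04 to 1.39) at 48 hours and -0.56 (SE 0.77, 95% interval -2.27 to 1.16) at 4 weeks, so changes of several-fold in either direction lie within the interval. The within-group SD of Cxcr2 was 1.01 on the log2 scale, higher than that of 96.5% of tested genes.

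Control pool 2 at 4 weeks had the highest Cxcr2 signal, the highest neutrophil sum (22858) and the highest beta-actin ratio of the 8 arrays. Without that pool the log2 difference of Cxcr2 at 4 weeks was 0.27, and with the beta-actin ratio as a covariate it was 0.54, so its sign was not stable. At 48 hours Cxcr2 was 35.0 in transgenic pool 1, with a neutrophil sum of 9264, and 176.7 in transgenic pool 2, with a neutrophil sum of 9558. The value of 35.0 lay under the median of its array (96.4) and cannot be told from background. Of the single neutrophil markers, S100a8 had signals of 2779 and 3336 in transgenic pools at 48 hours, against 6377 and 7909 in control pools. Camp, a granule protein gene, failed the filter, with signals of 5.5 to 89.1 and 0 arrays above the array median. Its values cannot be told from background. The part of neutrophils in the values of Cxcr2 was not tested.

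**Figure D2:**
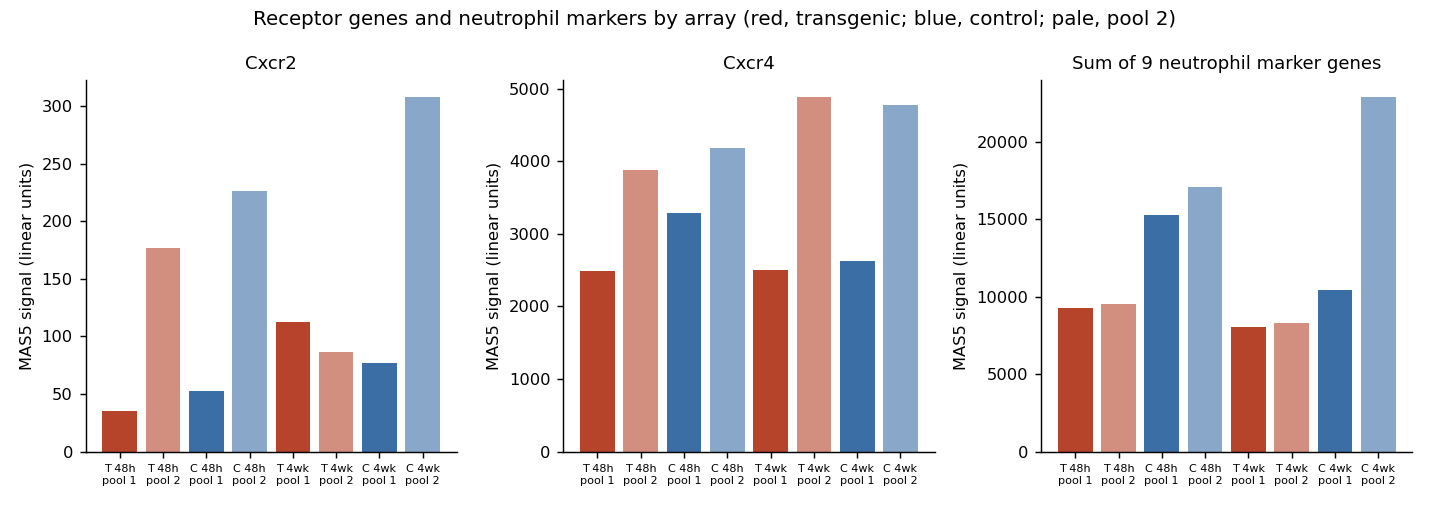
Signal in linear MAS5 units of Cxcr2 (left), Cxcr4 (middle) and the sum of 9 neutrophil marker genes (right) on each of the 8 arrays, with transgenic pools in red, control pools in blue and pool 2 of each group in a paler shade. The neutrophil sum is 8037 to 9558 in the 4 transgenic pools and 10448 to 22858 in the 4 control pools, while both receptors overlap between genotypes. Of the 8 neutrophil markers tested, 8 had a difference below 0 over both times. For 0 of them did all 4 transgenic pools lie below all 4 control pools. Mmp9 alone gave 4068 to 5680 of the sum in transgenic pools and 4337 to 5704 in control pools.

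Cxcl12, made mostly by stromal cells and the ligand of Cxcr4, had signals of 1674 and 1636 in transgenic pools at 48 hours, against 1356 and 1521 in control pools. Both transgenic pools lay above both control pools, as they did for 18.9% of all genes. Its log2 difference was 0.20 (SE 0.25, 95% interval -0.35 to 0.75, adjusted p = 0.979). At 4 weeks the signals were 2087 and 1513 in transgenic pools, against 2164 and 1892 in control pools, with a log2 difference of -0.18 (SE 0.25, 95% interval -0.73 to 0.36). Its within-group SD of 0.18 on the log2 scale was higher than that of 14.3% of genes.

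In control pools, Cxcl12 was higher in both pools at 4 weeks than in both at 48 hours, with a log2 difference of 0.49 (SE 0.25, 95% interval -0.06 to 1.03, adjusted p = 0.840). Of all genes, 18% had that order of pools. The summed signal of 9 fibroblast markers was 72232 to 75236 in transgenic pools and 38236 to 85526 in control pools at 48 hours, and 65581 to 85466 in transgenic pools and 57074 to 76614 in control pools at 4 weeks. Fibroblast transcripts were thus present on every array. Luminal epithelial markers moved more over time in controls, with a median log2 difference of 1.84. There 6 of the 7 tested had an unadjusted p under 0.05 with limma and were higher at 4 weeks. Of all genes, 6.16% had such a p in that comparison, and 0 of the 7 markers passed the adjusted threshold. In transgenic pools the median log2 difference of these markers over time was -0.43. The part of either cell type in the Cxcl12 signal was not tested. A second Cxcl12 probe set gave genotype log2 differences of 0.17 (SE 0.40) at 48 hours and 0.28 (SE 0.40) at 4 weeks. Over time in control pools it gave 0.09 (SE 0.40). Its signals there were 1153 and 911.5 at 48 hours and 918.4 and 1295 at 4 weeks, which overlapped, unlike those of the brighter probe set. Another, dim one passed the filter only through arrays of 4 weeks. At 48 hours its signals were 71.2 and 73.2 in transgenic pools, against 27.0 and 25.2 in control pools. All of these lay under the medians of their arrays (96.4 to 126.9) and cannot be told from background. Its log2 difference of 0.86 at 48 hours (SE 0.67, limma adjusted p = 0.969) therefore gives no reading of Cxcl12. The same holds for its time difference in control pools, 0.95 (SE 0.67).

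Cxcr4, which Cxcl12 binds and which most leukocytes carry, had signals of 2489 and 3882 in transgenic pools at 48 hours, against 3287 and 4178 in control pools. At 4 weeks it had 2498 and 4878 in transgenic pools, against 2629 and 4770 in control pools. The groups overlapped at both times. Between genotypes the log2 difference was -0.25 (SE 0.38, 95% interval -1.10 to 0.59) at 48 hours and -0.02 (SE 0.38, 95% interval -0.87 to 0.82) at 4 weeks. In each of the 4 groups the value of pool 2 was above that of pool 1, which was the case for 8.53% of all genes. The labels do not say what the pool number stands for.

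Cxcl13, which draws B cells and which some macrophages make, had signals of 369.8 and 175.3 in transgenic pools at 48 hours, against 327.5 and 385.6 in control pools. At 4 weeks the signals were 600.3 and 1335 in transgenic pools, against 730.1 and 729.6 in control pools. The genotypes overlapped at both times. The log2 difference between genotypes was -0.43 (SE 0.42, 95% interval -1.36 to 0.51) at 48 hours and 0.29 (SE 0.42, 95% interval -0.65 to 1.22) at 4 weeks. The difference between these was 0.71 (SE 0.60, adjusted p = 0.988).

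The larger contrast in Cxcl13 was between times. All 4 pools at 4 weeks lay above all 4 pools at 48 hours, an order that 1.1% of all genes had over both genotypes (within one genotype, 14.1% of genes had it in transgenic pools and 18% in control pools). The log2 difference of 4 weeks minus 48 hours was 1.69 in transgenic pools (SE 0.42, 95% interval 0.76 to 2.63), or 3.23-fold, and 0.98 in control pools (SE 0.42, 95% interval 0.04 to 1.91), or 1.97-fold. In the limma fit the unadjusted p was 0.00235 in transgenic pools (adjusted p = 1.00) and 0.0422 in control pools (adjusted p = 0.790). Over both genotypes, a comparison added after these values were seen, the log2 difference was 1.33 (SE 0.30, 95% interval 0.67 to 2.00, adjusted p = 0.999). Of all genes, 2.19% in transgenic pools, 6.16% in control pools and 3.46% over both genotypes had an unadjusted p under 0.05. Mice at the later time were also older and had received the dimerizer for longer, and these cannot be told apart.

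Without transgenic pool 2 at 4 weeks, the pool with the conflicting label, the time difference of Cxcl13 in transgenic pools was 1.14 on the log2 scale. A second, dimmer Cxcl13 probe set did not show the same order. Its signals were 169.5 and 172.8 in transgenic pools at 4 weeks, against 109.4 and 61.2 in transgenic pools at 48 hours. In control pools they were 115.3 and 52.6 at 4 weeks, against 179.3 and 98.9 at 48 hours. Its log2 difference of 4 weeks minus 48 hours was 0.83 (SE 0.51) in transgenic pools and -0.58 (SE 0.51) in control pools. The higher Cxcl13 signal at 4 weeks in controls therefore rests on the brighter probe set alone. On the dimmer one, 98.9 and 52.6 in control pools lay under the medians of their arrays (107.6 and 122.1). So did 61.2 in transgenic pool 2 at 48 hours (median 105.8), and these values cannot be told from background. The summed signal of 6 B cell markers was 511 to 769 in transgenic pools and 532 to 1296 in control pools at 4 weeks. At 48 hours it was 753 to 1050 in transgenic pools and 962 to 1342 in control pools. These genes were dim: only Cd79b lay above the array median on all 8 arrays, and the others did so on 4 to 6. Of the 7 luminal epithelial markers tested, 6 were higher over time in control pools, as was Cxcl13 on the brighter probe set, and 2 in transgenic pools. The part of these cells was not tested. Cxcr5, the receptor of Cxcl13, failed the filter, with signals of 24.2 to 99.8 over the 8 arrays.

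Cxcl14, a chemokine of epithelia and stroma, had signals of 143.4 and 118.6 in transgenic pools at 48 hours, against 210.7 and 88.4 in control pools. At 4 weeks it had 161.9 and 146.3 in transgenic pools, against 131.7 and 339.0 in control pools. The groups overlapped at both times, and the highest value was again in control pool 2 at 4 weeks. The log2 difference was -0.07 (SE 0.51, 95% interval -1.22 to 1.07) at 48 hours and -0.41 (SE 0.51, 95% interval -1.55 to 0.74) at 4 weeks, and without control pool 2 at 4 weeks the second value was 0.19. A second Cxcl14 probe set failed the filter.

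Cxcl16, a membrane-bound chemokine that macrophages and dendritic cells make, had signals of 988.1 and 1104 in transgenic pools at 48 hours, against 1837 and 987.0 in control pools. At 4 weeks they were 874.3 and 2498 in transgenic pools, against 799.1 and 1445 in control pools. One pool in each of 3 groups stood well above its partner, and the groups overlapped at both times. The log2 difference was -0.36 (SE 0.48, 95% interval -1.43 to 0.71) at 48 hours and 0.45 (SE 0.48, 95% interval -0.62 to 1.52) at 4 weeks. Its within-group SD of 0.68 was higher than that of 82.3% of genes.

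The difference between the genotype differences of Cxcl16, 4 weeks minus 48 hours, was 0.81 on the log2 scale (SE 0.68, 95% interval -0.70 to 2.32, adjusted p = 0.988). A second Cxcl16 probe set showed a like pattern with less scatter. Its signals were 557.5 and 518.6 in transgenic pools at 48 hours, against 1051 and 901.1 in control pools, and 701.0 and 1705 in transgenic pools at 4 weeks, against 447.9 and 884.6 in control pools. On it both transgenic pools lay below both control pools at 48 hours, with a log2 difference of -0.82 (SE 0.42), while at 4 weeks the groups overlapped, with a log2 difference of 0.77 (SE 0.42). The difference between these was 1.59 (SE 0.59, 95% interval 0.28 to 2.89), with a limma p of 0.0215 before adjustment and an adjusted p of 0.981 over 22631 probe sets, and 4.74% of genes had such an unadjusted p under 0.05 in the test of one probe set per gene. The 4-week value rested on transgenic pool 2: on the brighter probe set it was 1.19 without transgenic pool 1, and -0.29 without transgenic pool 2.

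**Figure D3:**
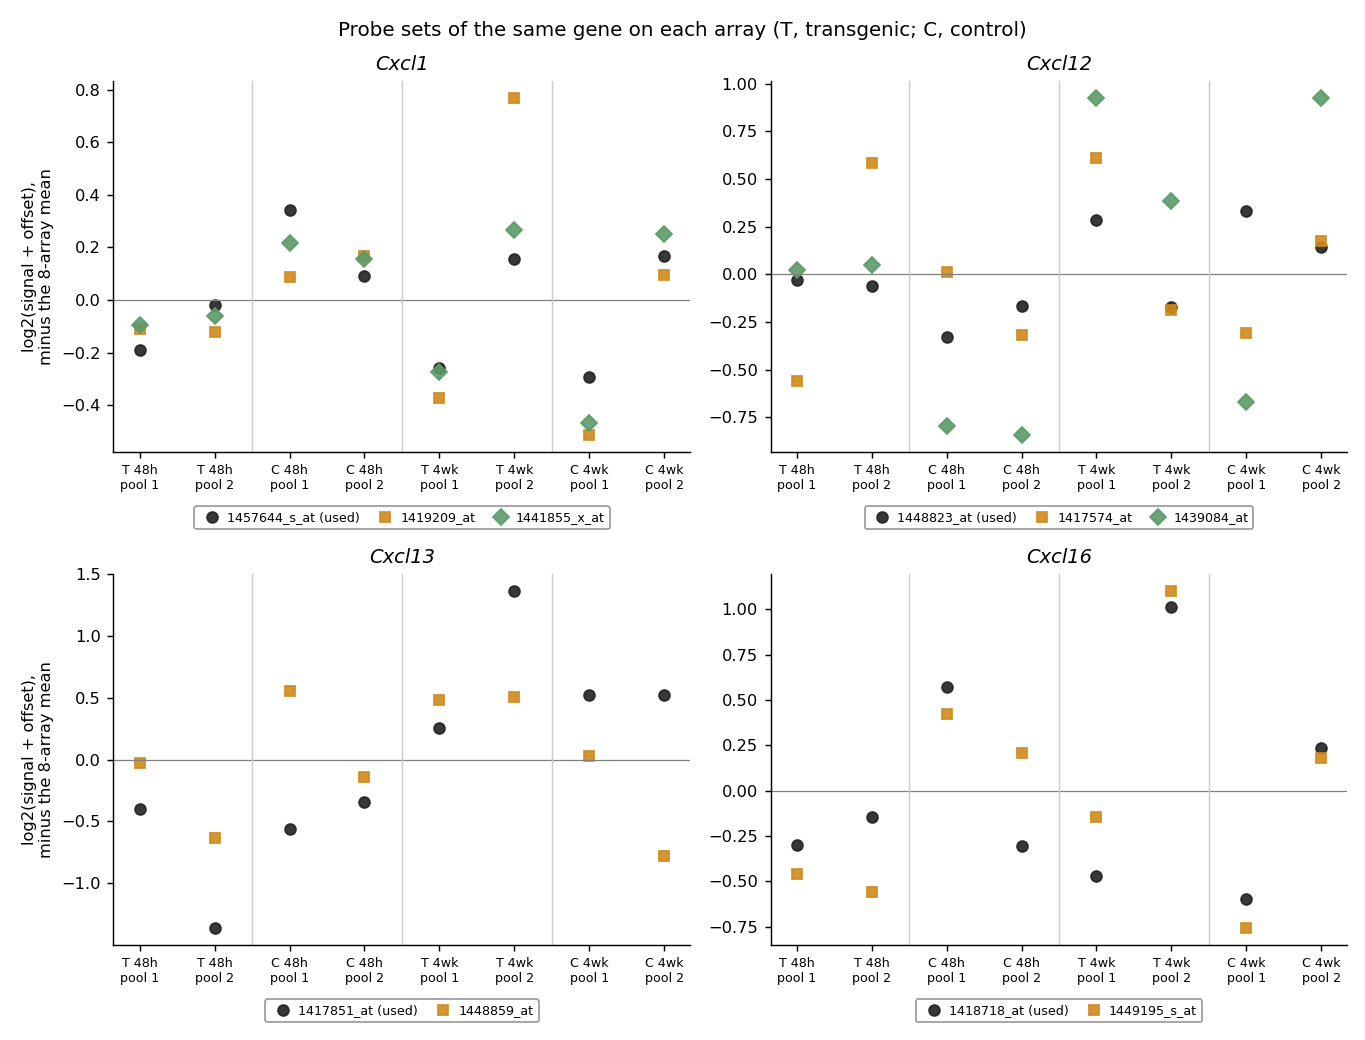
Value of every probe set that passed the filter for Cxcl1, Cxcl12, Cxcl13 and Cxcl16 on each array, as log2(signal + 30.8) minus that probe set's mean over the 8 arrays. The 2 probe sets of Cxcl16 lie on the same side of their means on every array except control pool 2 at 48 hours. There the brighter one is below its mean and the other above. Those of Cxcl13 part on arrays of several groups. Among these are control pool 2 at 4 weeks and control pool 1 at 48 hours.

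**Figure D4:**
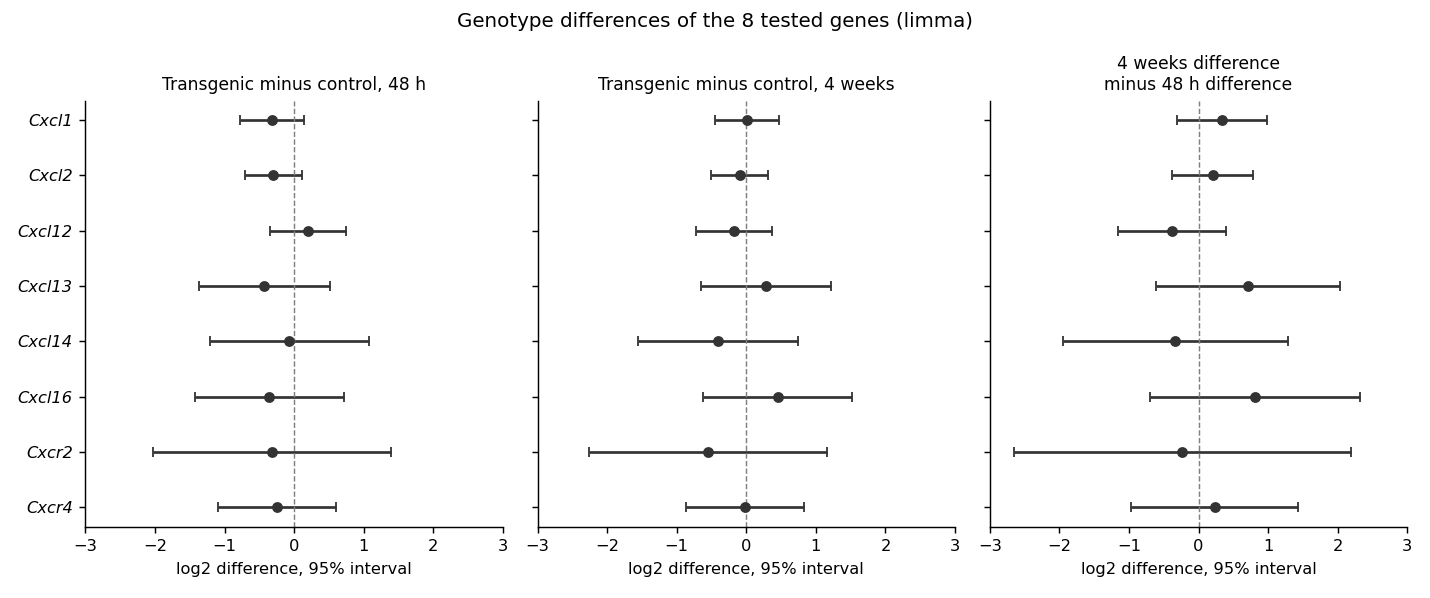
Log2 difference with its 95% interval for the 8 tested genes: transgenic minus control at 48 hours (left), transgenic minus control at 4 weeks (middle), and the 4-week difference minus the 48-hour difference (right). Every interval spans 0, and the intervals are narrowest for Cxcl1, Cxcl2 and Cxcl12 and widest for Cxcr2.

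The plot of genotype differences shows how the precision differed between the genes. The within-group SD on the log2 scale was 0.24 for Cxcl1, 0.20 for Cxcl2 and 0.18 for Cxcl12, under the all-gene median of 0.37. It was 0.52 for Cxcr4, 0.53 for Cxcl13, 0.56 for Cxcl14, 0.68 for Cxcl16 and 1.01 for Cxcr2, above that median. For the first 3 the 95% intervals of the 48-hour difference reached no further than 0.78 from 0, whereas for Cxcr2 they reached 2.04.

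The genes whose values followed each CXC gene most closely over the 8 arrays were found by the root mean square difference of log2 values, each gene centred on its own mean. For Cxcl1 they were Atp8b4 (0.05) and Cxcl2 (0.07), and for Cxcl2 they were Gnaq (0.06) and Efhd2 (0.07). Cxcl12 was followed by Sdha (0.08) and Ccdc6 (0.08), and Cxcr4 by Tnfrsf1b (0.10) and Cblb (0.12). Cxcl16 was followed by Ehf (0.14) and Irf4 (0.15), Cxcl14 by Bak1 (0.16) and Inpp1 (0.17), Cxcr2 by Krt77 (0.22) and Pcdhb20 (0.30), and Cxcl13 by Abr (0.29) and Apod (0.29). With 8 arrays that share their scaling and amplification, such closeness is a description of these arrays.

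The remaining genes of the CXC system gave no call either. Of 33 listed, 31 had a probe set of their own and 29 were tested. Among the 8 other CXC ligands, all tested, the difference between transgenic and control pools was below 0 for 6 at 48 hours, with a median of -0.30, and for 6 at 4 weeks, with a median of -0.32. The 4-week values of these ligands rested on control pool 2, the array with the highest beta-actin ratio: without it 3 of 8 were below 0, with a median of 0.30. With the beta-actin ratio as a covariate, 4 of 8 were below 0 at 48 hours, with a median of -0.05, and 3 of 8 at 4 weeks, with a median of 0.23. After quantile normalization 6 of 8 were below 0 at both times, with medians of -0.30 at 48 hours and -0.26 at 4 weeks. Without transgenic pool 2 at 4 weeks, 6 of 8 were below 0 at 4 weeks, with a median of -0.30. On all arrays, both transgenic pools lay below both control pools for 4 of the 8 at 48 hours and for 2 at 4 weeks, against 16.1% and 17.2% of all genes.

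Pf4, the platelet chemokine also called Cxcl4 that macrophages express as well, had signals of 46524 and 49087 in transgenic pools at 48 hours, against 53098 and 53749 in control pools. At 4 weeks they were 46153 and 48238 in transgenic pools, against 58355 and 52522 in control pools. All 4 transgenic pools lay below all 4 control pools, an order that 1.5% of genes had. The log2 difference over both times was -0.20 (SE 0.10, 95% interval -0.43 to 0.04, adjusted p = 0.959), and after quantile normalization it was -0.07. Pf4 is also among the 131 genes in the top 1% of mean signal. Of these, 97 were below 0 over both times, with a median log2 difference of -0.08 against 0.005 over all genes.

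Cxcl10, which draws T cells through Cxcr3, had signals of 1739 and 2019 in transgenic pools at 48 hours, against 2759 and 2556 in control pools. These did not overlap, and the log2 difference was -0.50 (SE 0.29, adjusted p = 0.976). At 4 weeks its signals were 1692 and 2998 in transgenic pools, against 1881 and 2385 in control pools, with a log2 difference of 0.09 (SE 0.29). Cxcl3, another neutrophil attractant of Cxcr2, was 733.2 and 402.8 in transgenic pools at 48 hours, against 1099 and 775.4 in control pools, which did not overlap. At 4 weeks Cxcl3 was 526.4 and 1574 in transgenic pools, against 133.8 and 1112 in control pools, with a log2 difference of 1.12 (SE 0.78, adjusted p = 0.986).

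Cxcl15, known in the mouse as a chemokine of lung epithelium, had signals of 164.4 and 136.7 in transgenic pools at 48 hours, against 14.9 and 72.5 in control pools. At 4 weeks the order was turned, with 302.9 and 67.0 in transgenic pools, against 424.8 and 334.7 in control pools. Its log2 difference was 1.40 (SE 0.62) at 48 hours and -1.18 (SE 0.62) at 4 weeks. The difference between these was -2.57 (SE 0.87), with a limma p of 0.0145 before adjustment and an adjusted p of 0.988. Only 5 of its 8 values lay above the array median. The luminal epithelial sum was also higher in both transgenic pools at 48 hours, and overlapped between genotypes at 4 weeks. Both that sum and Cxcl15 were highest in control pool 1 at 4 weeks. The part of epithelial cells in the Cxcl15 signal was not tested.

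Of 6 other receptors, 5 had a probe set and 3 were tested, namely Cxcr3, Ackr1 and Ackr3. Cxcr6, the receptor of Cxcl16, failed the filter with signals of 8.30 to 98.4. Ackr3, a receptor that takes up Cxcl12 without G protein signalling, had signals of 879.1 and 707.5 in transgenic pools at 48 hours, against 374.0 and 537.0 in control pools, and the groups did not overlap. The log2 difference was 0.77 (SE 0.53, 95% interval -0.40 to 1.94, adjusted p = 0.976). At 4 weeks its pools differed widely, with 1229 and 540.0 in transgenic pools, against 1294 and 388.0 in control pools. The luminal epithelial sum given above was likewise higher in both transgenic pools at 48 hours. Of the 7 such markers tested, 6 had that order and 1, Cldn3, had the reverse order. The part of epithelial cells in the Ackr3 signal was not tested.

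Of 19 genes for processing and signalling, 18 were tested, with 11 above 0 and 7 below 0 at 48 hours and 13 above 0 and 5 below 0 at 4 weeks. Adam10, a protease that sheds Cxcl16, had a log2 difference of 0.35 (SE 0.21, adjusted p = 0.976) at 48 hours and -0.02 (SE 0.21) at 4 weeks. Cd74, the receptor of the cytokine Mif and the invariant chain of class II antigen presentation, had signals of 30525 and 34834 in transgenic pools at 4 weeks, against 21543 and 15694 in control pools. Both transgenic pools lay above both control pools, as for 14.7% of genes, with a log2 difference of 0.83 (SE 0.31, 95% interval 0.15 to 1.51, adjusted p = 0.965).

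Rgs16, a protein that shortens G protein signals below chemokine receptors, shared the order in time of Cxcl13. Its signals were 378.7 and 470.8 in transgenic pools at 4 weeks, against 215.0 and 258.3 in transgenic pools at 48 hours. In control pools they were 405.4 and 482.7 at 4 weeks, against 138.5 and 270.0 at 48 hours. All 4 pools at 4 weeks lay above all 4 at 48 hours, and the log2 difference over both genotypes was 0.92 (SE 0.26, 95% interval 0.35 to 1.49, adjusted p = 0.999). Of the 29 tested genes of the remaining CXC system, 1 had that order, against 1.1% of all genes.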

How the data were processed

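Gene expression was measured on 8 Affymetrix arrays. The 9 genes and the gene lists were chosen with earlier results of these data known. The authors deposited signal intensity per probe set, made with MAS5 (version not given in the sources used here), per the submitters' processing notes. RNA was amplified from small samples, per the labels' protocols. The values are linear (0.30 to 159547), and the mean without the lowest and highest 2% was near 500 on every array, as the values show. Of 45101 probe sets, 34945 carried 1 symbol in GEO's platform annotation, 932 several, 9160 none, and 64 were array controls. Signals became log2(signal + 30.8), the 25th percentile of all values. A gene was tested where its signal passed the array median on at least 2 arrays. limma 3.58.1 in R 4.3.3 fitted 4 group means to all 8 arrays (lmFit, contrasts.fit, eBayes with trend; 4 residual degrees of freedom, a median prior of 6.21), two-sided, with Benjamini-Hochberg adjustment and a threshold of 0.05. Named genes are the 9 CXC genes, listed genes of the same system, the 2 genes closest in pattern and cell markers. The labels do not say whether pools came from separate experiments, so p-values measure only the spread between these pools. The number of arrays limits the precision. Alternatives changed scaling, offset, filter, probe set, variance prior, weights, covariates and arrays.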

Additional observations from a re-analysis of the deposited data

How the results depend on the processing

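Of 1233 alternative values of the 9 genes, 1082 were tested with limma and 0 passed the adjusted threshold; the other 151, mostly of Cxcl5, which failed the filter, have no test. In all, 99 of the 1233 had another sign than in the fit to all arrays. Where the difference exceeded 1 SE, the sign turned for these. Quantile normalization gave 0.048 for Cxcl1 and 0.0066 for Cxcl2 over both times. The next brightest probe set gave 0.082 for Cxcl1 over both times, 0.11 for Cxcl12 between the genotype differences, and -0.58 for Cxcl13 over time in controls. The beta-actin covariate gave 0.00011 for Cxcl1 over both times. Leaving out each pool gave -0.91 to 0.053 for Cxcl13 at 48 hours (0.053 without transgenic 48 hours pool 2), -0.25 to 1.23 for Cxcl16 over time in transgenic mice (-0.25 without transgenic 4 weeks pool 2) and -0.062 to 1.12 for Cxcl14 over time in controls (-0.062 without control 4 weeks pool 2). The causes were not tested.

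Over all genes, the counts called were 0 in 6 of the 7 comparisons and 1 over time in controls, which was F5 (coagulation factor V, adjusted p = 0.0400, named after its value was seen). With only the 4 arrays compared the count was 1 at 48 hours, 1 at 4 weeks, 0 over time in transgenic mice and 0 over time in controls; the other comparisons need all 8 arrays. Over time in controls it was 0 with the filter at the 75th percentile, without trend and with array weights, and 7 with the beta-actin covariate. Leaving out each pool gave 0 to 1 at 48 hours, at 4 weeks, between the genotype differences, over time in transgenic mice and over time in both genotypes, 0 to 3 over both times and 0 to 7 over time in controls, where the 7 came without control 4 weeks pool 2.

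The labels do not say what pool numbers stand for. Across 13041 genes the deviations of same-numbered pools correlated at -0.09 to 0.13 between groups, over 0.1 in 3 of 6 pairs of groups, so the numbers were not taken as pairs. With the pool number as a replicate block the count was 2 at 4 weeks, 4 over time in controls and 1 over time in both genotypes, and the SE of Cxcr4 at 48 hours was 0.22 in place of 0.38, with an adjusted p of 0.919.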

Other observations

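Atp8b4, a lipid flippase gene whose values followed Cxcl1 most closely, had signals of 1282 and 1351 in transgenic pools at 48 hours, against 1780 and 1476 in control pools, and 1079 and 1536 in transgenic pools at 4 weeks, against 1078 and 1464 in control pools. Tnfrsf1b, a receptor for tumour necrosis factor, was like Cxcr4 higher in pool 2 than in pool 1 of each group: its signals were 2061 and 3084 in transgenic pools and 3007 and 3173 in control pools at 48 hours, and 1920 and 3657 in transgenic pools and 2165 and 4299 in control pools at 4 weeks. Irf4, a transcription factor of lymphocytes and some macrophages, had 1639 and 3708 in transgenic pools at 4 weeks, against 1177 and 2572 in control pools, with its highest value, like that of Cxcl16, in transgenic pool 2. These genes were found by their likeness over the same arrays, so the values describe that likeness and nothing was tested.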
